A study of Mus musculus with 2 samples.

Results

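The genes described here are 4 ligands of the vascular endothelial growth factor (VEGF) family and 6 receptors that receive signals for vessel growth, taken by their exact symbols from the 32285 genes of a single-nucleus RNA sequencing study of the mouse colon. The 4 ligands are Vegfa, Vegfb, Vegfc and Pgf, and the 6 receptors are Flt1, Kdr, Flt4, Nrp1, Nrp2 and Tek. All 10 genes were found among the features of both libraries, and they were taken by name, with earlier results of these data already known. The comparison asked of them is where in the colon the ligands were transcribed and which nuclei carried the receptors.

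The WT group was labelled wild type, and the HIF-1α KO group Ncr1cre+ Hif-1α fl+/fl+, a genotype in which Cre under the promoter of Ncr1 deletes Hif-1α in cells that express NKp46. The mice were 8 to 12 weeks old, and C57BL/6J is the strain given in the study's methods. All animals of both groups drank 2% dextran sodium sulfate (DSS), which damages the mucosa, for 3 days followed by 4 days of recovery, over 4 such cycles, and frozen colon was taken on day 28. Tissue of 3 animals per genotype was pooled into 1 library, so each genotype had 1 library, no difference between genotypes could be tested, and no untreated colon was part of the comparison. The Ncr1 promoter is active in natural killer cells and some other innate lymphoid cells, so the vessel, stromal and epithelial nuclei described here are not those in which Cre is meant to act.

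In background, VEGF-A, VEGF-B and placental growth factor, the product of Pgf, bind FLT1 (VEGFR1), and VEGF-A signals to blood vessels mainly through KDR (VEGFR2). VEGF-C acts on FLT4 (VEGFR3), the receptor that lymphatic vessels need for their growth, and after processing also on KDR. NRP1 and NRP2, the neuropilins, are co-receptors that bind VEGFs as well as class 3 semaphorins, and TEK (TIE2) is the receptor of the angiopoietins, which steady mature vessels. Vegfa is a textbook target of hypoxia-inducible factors, and in the colon the epithelial surface is the region poorest in oxygen.

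Values are counts of unique molecular identifiers (UMIs), each of which stands for 1 captured RNA molecule, added up within each class of nuclei and expressed as counts per 1000000 UMIs (CPM) of that class. Intervals in brackets after a CPM are exact 95% Poisson intervals, those after a share of nuclei are exact (Clopper-Pearson) 95% binomial intervals, and those after a log2 ratio are exact conditional 95% intervals. They hold the error of counting and leave out any spread between animals. The intervals on UMIs also leave out the spread between nuclei of a class. They are therefore too narrow where few nuclei hold many of the UMIs. The WT library held 4896 barcodes and 13492810 UMIs and the HIF-1α KO library 4772 and 25489277, and the filter on nuclei left 4884 and 4702. Median depth was 2058.5 UMIs per nucleus in WT and 4197 in HIF-1α KO, so the main shares of nuclei with a UMI are also given with every nucleus thinned to 1000 UMIs. The libraries had 3 barcodes in common, of which 0 were endothelial nuclei. The term called is used for a gene that differed at least 2-fold among genes with at least 20 UMIs, in both libraries where classes are compared.

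Blood and lymphatic endothelial nuclei formed separate clusters, although the 10 genes were left out of the clustering. The blood endothelial-like cluster held 79 nuclei of WT and 33 of HIF-1α KO, the lymphatic one 81 and 44. Of the genes that mark lymphatic vessels, Reln had 437 and 137 UMIs in the lymphatic nuclei of WT and HIF-1α KO and 0 in the blood endothelial nuclei of either library, which allows up to 3 UMIs each. Mmrn1 had 236 and 48 UMIs in the lymphatic nuclei against 1 and 0 in the blood endothelial ones. The markers of blood vessels separated the classes less. Ptprb stood at 742 CPM (622 to 878) and 894 (733 to 1081) in blood endothelial nuclei of WT and HIF-1α KO, against 236 (175 to 311) and 260 (176 to 368) in lymphatic nuclei, whereas Emcn stood at 104 CPM (62.9 to 163) and 184 (115 to 278) in blood and at 113 (72.7 to 169) and 109 (58.0 to 186) in lymphatic nuclei. The intervals of Emcn overlapped in both libraries, so Emcn did not separate the vessel types. The name of the blood class rests on Ptprb, Emcn and Cyyr1, each compared with all other nuclei. That of the lymphatic class rests on Reln, Mmrn1 and Prox1. Markers of epithelium were also found in both classes, with summed goblet markers at 885 and 1379 CPM in the blood endothelial nuclei of WT and HIF-1α KO.

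The promoters of 3 receptors that both endothelial classes carried or that separated them are shown first, because the nuclei that held these receptors are the main result. They are the bases before the gene start from RefSeq on GRCm38.p6, written 5′ to 3′ on the strand of the gene, with matches to 4 short motifs in capitals. CAGGAA and CCGGAA are 2 of the spellings found at sites of ETS factors, a family that includes the endothelial factors ERG and FLI1. ACGTG and GCGTG are core letters of sites for hypoxia-inducible factors. Each was searched on both strands. Flt1 is on the minus strand, chr5:147726012-147726261, Kdr is on the minus strand, chr5:75978459-75978705, without the 3 bases that GENCODE places inside the gene, and Tek is on the plus strand, chr4:94739039-94739288.
Flt1: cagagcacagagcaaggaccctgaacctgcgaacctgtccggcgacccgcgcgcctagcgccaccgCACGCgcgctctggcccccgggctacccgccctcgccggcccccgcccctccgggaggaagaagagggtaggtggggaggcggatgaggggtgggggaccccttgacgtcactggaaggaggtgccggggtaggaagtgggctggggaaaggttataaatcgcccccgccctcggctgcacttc
Kdr: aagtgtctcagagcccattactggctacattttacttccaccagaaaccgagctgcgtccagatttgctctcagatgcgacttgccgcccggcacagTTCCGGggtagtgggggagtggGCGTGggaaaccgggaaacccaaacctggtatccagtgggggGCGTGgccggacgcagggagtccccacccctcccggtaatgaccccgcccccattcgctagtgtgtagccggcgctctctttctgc
Tek: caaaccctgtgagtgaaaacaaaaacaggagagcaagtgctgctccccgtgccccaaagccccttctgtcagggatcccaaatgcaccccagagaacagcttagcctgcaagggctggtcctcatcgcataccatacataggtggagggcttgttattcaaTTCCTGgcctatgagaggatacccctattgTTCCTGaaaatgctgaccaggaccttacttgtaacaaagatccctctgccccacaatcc
The window of Flt1 held 1 match to the hypoxia letters and 0 to the 2 ETS spellings, that of Kdr 2 and 1, and that of Tek 0 and 2. GGAA after other bases does occur in the window of Flt1, and such spellings were not searched. All 10 genes matched an entry of the RefSeq table. Over windows of 250 bases, 4 of the 10 genes held either ETS motif at their first listed start, against 35.1% of 32851 promoters, and 6 of 10 held either hypoxia motif, against 38.6%. The first listed windows of Pgf, Flt4 and Nrp1 lay wholly inside the gene as GENCODE places it. Those of Pgf and Nrp1 held 1 hypoxia match each. The first listed window of Vegfa held 1 ETS match and 0 hypoxia matches, and that of its second listed start, which lies inside the gene, 0 and 2. A match describes letters in these windows, and a window without one says nothing of sites outside it or of sites spelled otherwise.

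**Figure D1:**
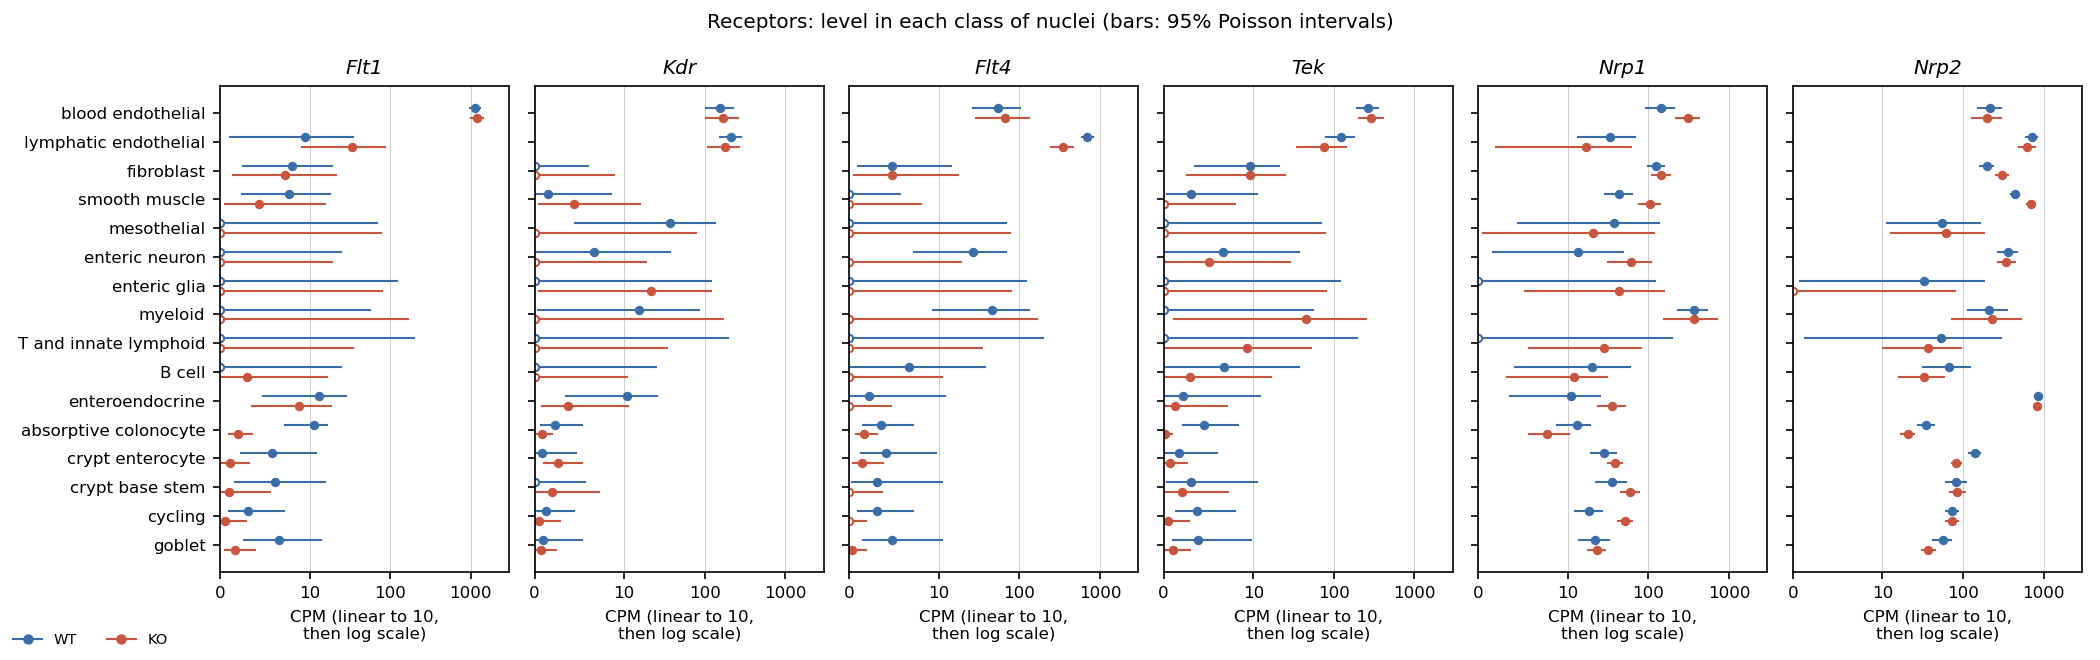
Level of the 6 receptors (CPM, linear up to 10 and then a log scale) in 16 classes of nuclei of the WT (blue) and HIF-1α KO (red) libraries. Points are the CPM of summed UMIs, bars are 95% Poisson intervals, and open points at 0 are classes without a UMI. Flt1 stands at 1116 and 1203 CPM in blood endothelial nuclei and no higher than 33.5 in any other class shown, while Nrp1 and Nrp2 extend over stromal and epithelial classes.

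Flt1 was the receptor most restricted to blood vessels. FLT1 binds VEGF-A tightly and in part withholds it from KDR. It had 203 UMIs in 79 WT and 144 in 33 HIF-1α KO blood endothelial nuclei, which is 1116 CPM (968 to 1280) and 1203 CPM (1015 to 1417). In lymphatic nuclei 2 and 4 UMIs were found, or 9.45 CPM (1.14 to 34.1) and 33.5 CPM (9.13 to 85.8), and the 4 UMIs in HIF-1α KO lay in 1 nucleus. The blood to lymphatic log2 ratio was 6.88 (5.01 to 9.94) in WT and 5.17 (3.78 to 7.06) in HIF-1α KO. Among blood endothelial nuclei 69.6% (58.2 to 79.5) had a UMI of Flt1 in WT and 81.8% (64.5 to 93.0) had one in HIF-1α KO, and after thinning 54.4% and 48.5% did. Goblet nuclei, which should lack Flt1, held a UMI in 2.46% and 1.00% of nuclei at medians of 3083.5 and 5476 UMIs, above the 1948 and 2752 UMIs of the blood endothelial nuclei, and after thinning in 0.352% and 0%. The share in lymphatic nuclei, 2.47% and 2.27%, lay at this background. Single nuclei varied widely, and the highest held 29 UMIs of Flt1 in WT and 28 in HIF-1α KO.

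Kdr, the main signalling receptor for VEGF-A, was shared by both kinds of vessel. It had 28 and 20 UMIs in the blood endothelial nuclei of WT and HIF-1α KO, or 154 CPM (102 to 222) and 167 CPM (102 to 258). The lymphatic nuclei had 45 and 21 UMIs, or 213 CPM (155 to 284) and 176 CPM (109 to 269). The intervals overlapped in both libraries, and the log2 ratio of blood over lymphatic nuclei was -0.47 (-1.2 to 0.25) in WT and -0.07 (-1.03 to 0.88) in HIF-1α KO, so a difference of Kdr between the vessel types was not detectable at this depth. Fibroblasts held 0 UMIs of Kdr in both libraries, which allows up to 3. Goblet nuclei held a UMI in 0.352% and 0.401% of nuclei, against 29.1% and 33.3% of blood and 23.5% and 27.3% of lymphatic nuclei. After thinning these were 0% for goblet nuclei of both libraries, 16.5% and 18.2% for blood and 12.3% and 16.7% for lymphatic nuclei.

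Flt4, the receptor of VEGF-C, was found mostly in lymphatic nuclei. These had 148 UMIs in WT and 41 in HIF-1α KO, or 699 CPM (591 to 821) and 343 CPM (246 to 466). Blood endothelial nuclei had 10 and 8 UMIs, or 55.0 CPM (26.4 to 101) and 66.9 CPM (28.9 to 132). The log2 ratio of blood over lymphatic nuclei was -3.67 (-4.76 to -2.75) and -2.36 (-3.66 to -1.25). The level in blood endothelial nuclei was low but lay above that of goblet nuclei, which stood at 4.73 CPM (1.54 to 11) and 0.333 CPM (0.00844 to 1.86). Flt4 was seen in 66.7% and 50% of lymphatic nuclei of WT and HIF-1α KO and in 1.76% and 0.200% of goblet nuclei, and after thinning in 43.2% and 31.0% against 0.704% and 0%. It was found together with Nrp2 in 39 of the 81 lymphatic nuclei in WT and 14 of the 44 in HIF-1α KO, against 3 of 79 and 2 of 33 blood endothelial nuclei.

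Tek, the angiopoietin receptor, was found in both vessel types and was higher in blood vessels. It had 48 and 35 UMIs in blood endothelial nuclei, or 264 CPM (195 to 350) and 293 CPM (204 to 407). Lymphatic nuclei had 26 and 9, or 123 CPM (80.2 to 180) and 75.4 CPM (34.5 to 143). The log2 ratio was 1.10 (0.39 to 1.85) in WT and 1.96 (0.87 to 3.20) in HIF-1α KO. In blood endothelial nuclei Tek was found with Flt1 in 22 of 79 nuclei in WT and in 15 of 33 in HIF-1α KO. At least 1 UMI of any of the 6 receptors was present in 73 of 79 and 31 of 33 blood endothelial nuclei and in 72 of 81 and 34 of 44 lymphatic nuclei.

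**Figure D2:**
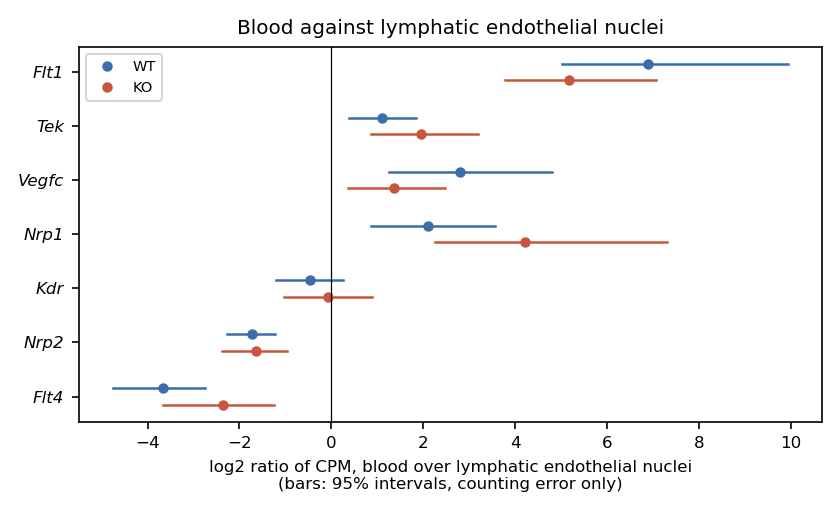
Log2 ratio of CPM of blood over lymphatic endothelial nuclei for the 7 genes with at least 20 UMIs in these classes, in the WT (blue) and HIF-1α KO (red) libraries, with 95% intervals for counting error. Flt1 lies furthest to the side of blood vessels at 6.88 and 5.17, Flt4 and Nrp2 lie on the lymphatic side, and the bars of Kdr cross 0 in both libraries.

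The neuropilins were the members with the widest distribution. Nrp1, which binds VEGF-A and semaphorin 3A, had its highest levels in blood endothelial and myeloid-like nuclei and in fibroblasts. Blood endothelial nuclei had 26 and 37 UMIs in WT and HIF-1α KO, or 143 CPM (93.4 to 209) and 309 CPM (218 to 426), whereas lymphatic nuclei had 7 and 2, or 33.1 CPM (13.3 to 68.1) and 16.7 CPM (2.03 to 60.5). The myeloid-like nuclei, a macrophage-like group of only 32 and 11 nuclei, had 24 and 8 UMIs, or 363 CPM in both libraries (233 to 540.5 and 157 to 716). Fibroblasts stood at 125 CPM (98.8 to 156) and 145 CPM (111 to 187). Their intervals overlapped those of blood endothelial nuclei in WT and not in HIF-1α KO.

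Nrp2, which binds VEGF-C and semaphorin 3F, was highest in enteroendocrine nuclei, the hormone-secreting cells of the epithelium. These had 396 UMIs in 146 WT nuclei and 663 in 131 HIF-1α KO nuclei, or 860 CPM (777 to 949) and 835 CPM (773 to 902). Lymphatic nuclei followed with 713 CPM (604 to 837) and 628 CPM (494 to 787), and smooth muscle with 443 CPM (393 to 497) and 695 CPM (621 to 775). In the order of levels, enteroendocrine and lymphatic nuclei did not differ beyond their intervals in either library, and in HIF-1α KO neither of them differed beyond these from smooth muscle. A UMI of Nrp2 was present in 74.0% (66.1 to 80.9) and 71.8% (63.2 to 79.3) of enteroendocrine nuclei and in 17.6% and 17.2% of goblet nuclei, and after thinning in 49.3% and 45% against 4.58% and 4.41%. Enteroendocrine nuclei held 20.8% (19.0 to 22.7) and 28% (26.2 to 29.8) of all UMIs of Nrp2, more than both endothelial classes together with 10.0% and 4.18%. With each nucleus assigned by its own markers, the log2 ratio of enteroendocrine over other nuclei was 2.52 in WT, from 2.87 (2.71 to 3.03) with clusters.

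Counted against all genes, the receptors stood out in the endothelial classes, which describes genes chosen with earlier results of these data known. In blood endothelial nuclei 6 of 10 members were called higher than in the other nuclei (Flt1, Kdr, Tek, Flt4, Nrp1 and Vegfc), where 6.56% of 16424 genes were called. In lymphatic nuclei 4 of 10 were called higher (Flt4, Kdr, Tek and Nrp2), against 6.78% of genes. In each class 1 member was called lower, Pgf in blood and Vegfb in lymphatic nuclei, where 25.9% and 23.5% of genes were called lower, and both were at 0 UMIs there, so nothing is read from these calls. Between the vessel types 7 members had enough UMIs. Flt1, Nrp1, Tek and Vegfc were called higher in blood vessels, against 3.78% of 5766 genes, and Flt4 and Nrp2 higher in lymphatic vessels, against 4.72%. Nrp2 alone was called higher in enteroendocrine nuclei, where 8.13% of genes were called, and Nrp1 alone in myeloid-like nuclei, where 4.72% of genes were called, and 1 gene in 10 is too few to read against these shares.

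A list of 48 other genes of these pathways, of which 42 had enough UMIs, showed which other genes of vessel growth were higher in the same nuclei. In blood endothelial nuclei 22 of the 42 were called higher and 6 lower, against the 6.56% and 25.9% of all genes given above, and in lymphatic nuclei 26 and 4, against 6.78% and 23.5%. The list holds many known endothelial genes and was chosen with earlier results of these data known, so these counts are descriptions and not a test. Some of these calls rest on few UMIs, such as that of Angpt4 as higher in blood endothelial nuclei on 1 UMI in each library and those of Angpt4, Sox17 and Sema3g as lower in lymphatic nuclei at 0 UMIs. With 10 CPM added, the median log2 ratio of the list was 1.2 and 1.07 in blood endothelial nuclei of WT and HIF-1α KO, against -0.14 and -0.15 over all genes tested. Cdh5, the cadherin of endothelial junctions, had 43 and 12 UMIs in blood and 22 and 10 in lymphatic nuclei. Robo4, an endothelial guidance receptor, had 26 and 8 against 13 and 4, and Nos3, the endothelial nitric oxide synthase, 30 and 9 against 8 and 3. Sox17, a factor of arterial endothelium, had 10 and 8 UMIs in blood endothelial nuclei and 0 in lymphatic ones in both libraries. Lyve1, a hyaluronan receptor of lymphatic vessels, had 51 and 7 UMIs in lymphatic against 0 and 1 in blood endothelial nuclei. Pdpn, which encodes podoplanin of lymphatic endothelium, had 28 and 19 against 3 and 0. Itga9, an integrin subunit needed for lymphatic valves and named with its values known, had 88 and 43 against 8 and 12. Between the vessel types 6 of 26 genes were called higher in blood and 5 in lymphatic nuclei, against 3.78% and 4.72% of 5766 genes.

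Other ligands of the same receptors are found among the angiopoietins and class 3 semaphorins. Angpt1, the activating ligand of TEK, was found in fibroblasts with 98 UMIs at 157 CPM in WT and 126 UMIs at 304 CPM in HIF-1α KO, while blood endothelial nuclei, which carried Tek, had 1 and 0 UMIs of it. Sema3a, a ligand of NRP1, had 185 and 91 UMIs in lymphatic nuclei, or 874 and 762 CPM, against 4 and 0 in blood endothelial nuclei. Sema3d likewise had 124 and 68 UMIs in lymphatic nuclei, or 586 and 569 CPM, against 3 and 0. Lymphatic nuclei thus held these semaphorins at high levels, while Nrp1 itself was low in them. Sema3a was also present in smooth muscle at 501 and 640.5 CPM. Sema3c was spread over the tissue, with 271 and 428 CPM over all nuclei and 422 and 652 CPM in absorptive colonocytes, and Sema3e was found in enteroendocrine nuclei at 97.7 and 92.0 CPM and in smooth muscle at 66.1 and 119 CPM. Sema3f, a ligand of NRP2, had 28 and 8 UMIs in lymphatic and 17 and 6 in blood endothelial nuclei. Angpt2, Angpt4, Vegfd, Sema3b and Sema3g had at most 7 UMIs each in either endothelial class of either library.

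**Figure D3:**
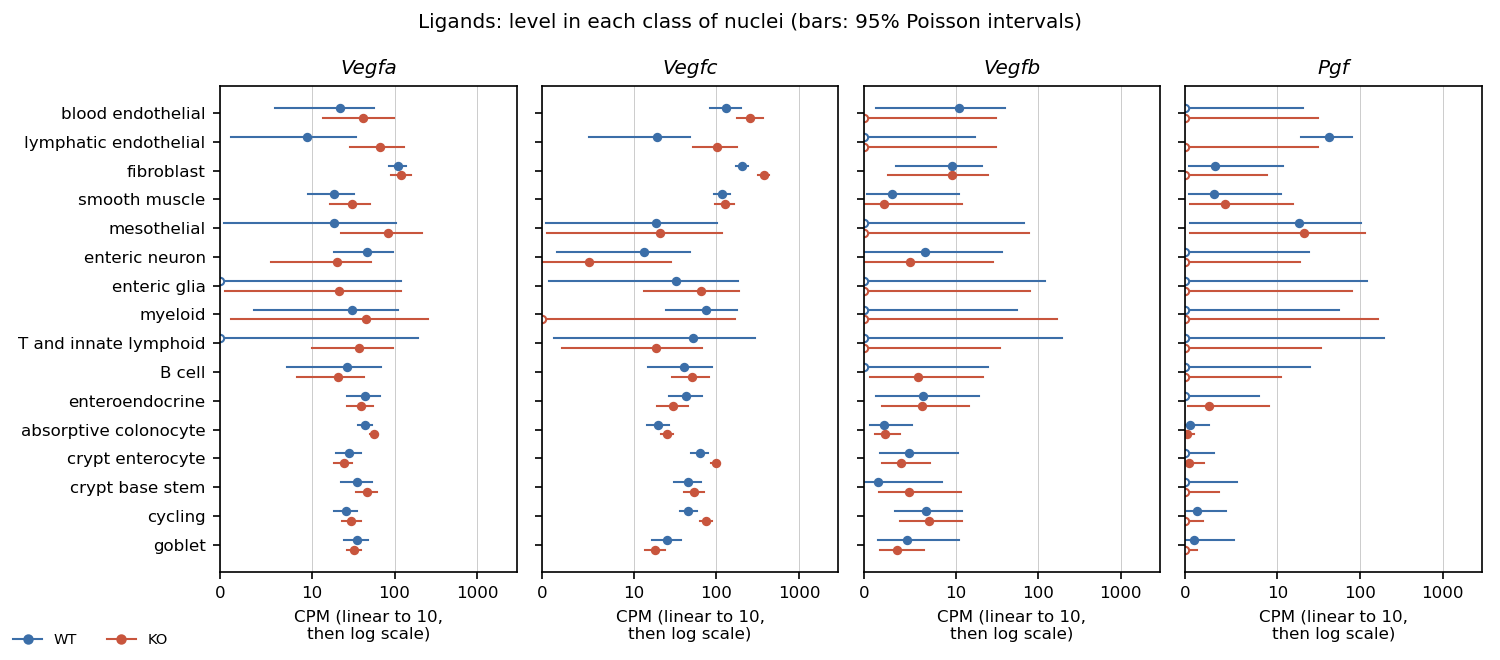
Level of the 4 ligands (CPM, linear up to 10 and then a log scale) in 16 classes of nuclei of the WT (blue) and HIF-1α KO (red) libraries. Points are the CPM of summed UMIs and bars are 95% Poisson intervals. Vegfa and Vegfc have their highest values in fibroblasts, at 109 and 121 CPM and at 205 and 375 CPM, and are present in most epithelial classes, while Vegfb and Pgf stand near the floor. For Vegfc the bars of fibroblasts overlap those of blood endothelial nuclei in both libraries. Numbered clusters are not shown.

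Turning to the ligands, Vegfa was highest in fibroblasts in both libraries. Fibroblasts had 68 UMIs in 252 WT nuclei and 50 in 129 HIF-1α KO nuclei, or 109 CPM (84.6 to 138) and 121 CPM (89.7 to 159). Absorptive colonocytes had 98 and 340 UMIs, or 44.2 CPM (35.9 to 53.8) and 57.0 CPM (51.1 to 63.3). Classes with few UMIs of Vegfa stood above them, with wide intervals that overlapped theirs, namely enteric neurons in WT with 7 UMIs, and mesothelial and lymphatic nuclei in HIF-1α KO with 4 and 8. Crypt enterocytes, the Cftr- and Htr4-rich nuclei, had 28.2 CPM (19.5 to 39.4) and 24.2 CPM (18.7 to 30.7). Both endothelial classes together held 6 and 13 UMIs, which is 1.33% and 1.42% of all UMIs of Vegfa. Because they are numerous, absorptive colonocytes held 21.7% (18.0 to 25.8) of the Vegfa UMIs in WT and 37.2% (34.1 to 40.5) in HIF-1α KO, against 15% (11.9 to 18.7) and 5.48% (4.09 to 7.16) for fibroblasts. A UMI of Vegfa was seen in 17.9% and 20.2% of fibroblast nuclei and after thinning in 9.52% and 6.45%, against 12% and 16.6% of goblet nuclei and, after thinning, 3.52% and 1.80%.

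Within the absorptive class, Vegfa followed the more mature cluster. The cluster led by Car4, Aqp8 and Clca4a, genes of the mature surface, had 76 UMIs in 250 WT nuclei and 247 in 448 HIF-1α KO nuclei, or 65.5 CPM (51.6 to 81.9) and 73.7 CPM (64.8 to 83.5). The other absorptive cluster, led by Slc9a3 and Slc26a3, had 20.8 CPM (13.0 to 31.5) and 35.5 CPM (28.7 to 43.5). The intervals of these clusters did not overlap in either library. For the whole class, the log2 ratio of absorptive over crypt nuclei was 0.65 (0.07 to 1.26) in WT and 1.24 (0.85 to 1.64) in HIF-1α KO, and its size depended on the clustering. It was 0.11 in WT at a resolution of 2, 1.25 in WT and 0.35 in HIF-1α KO without integration of the libraries, and 0.66 in HIF-1α KO at a resolution of 0.5. Vegfa did not reach 2-fold in WT and was not called, where 7.94% of 12877 genes were called higher in absorptive nuclei. Of 15 listed genes that hypoxia is known to induce, 10 were called higher in absorptive nuclei and 0 lower, with a median log2 ratio, 10 CPM added, of 0.93 and 0.94 against -0.12 and -0.20 over all genes tested. Bnip3, a mitophagy receptor, had 35.2 and 33.0 CPM in absorptive against 3.32 and 4.39 CPM in crypt nuclei, and Adm, which encodes adrenomedullin, 19.4 and 19.3 against 2.49 and 1.83 CPM. Pdk1, a kinase that limits the entry of pyruvate into mitochondria, had 23.4 and 30.5 CPM in absorptive against 24.9 and 34.4 CPM in crypt nuclei.

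Vegfc was lower in absorptive than in crypt nuclei. Crypt enterocytes had 76 and 269 UMIs of it, or 63.0 CPM (49.7 to 78.9) and 98.5 CPM (87.1 to 111), and absorptive colonocytes 44 and 150, or 19.8 CPM (14.4 to 26.6) and 25.1 CPM (21.3 to 29.5). The log2 ratio of absorptive over crypt nuclei was -1.67 (-2.24 to -1.11) and -1.97 (-2.27 to -1.68). It was called lower in absorptive nuclei together with Nrp1 and Nrp2, where 13.3% of genes were called. Nrp2 had 35.2 and 20.6 CPM in absorptive against 139 and 82.7 CPM in crypt nuclei. Crypt base stem nuclei, the other crypt class, had 35.2 CPM of Vegfa (22.3 to 52.9) in WT and 46.8 CPM (34.4 to 62.2) in HIF-1α KO, which overlapped the absorptive nuclei in both libraries. Their Vegfc stood at 46.0 CPM (31.0 to 65.6) and 53.7 CPM (40.4 to 70.1) and their Nrp2 at 82.7 CPM (62.1 to 108) and 85.6 CPM (68.4 to 106), above the absorptive nuclei without overlap. After thinning, a UMI of Vegfc was seen in 6.43% and 8.11% of crypt enterocyte nuclei, against 2.27% of absorptive nuclei in both libraries and 3.52% and 1.80% of goblet nuclei.

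Fibroblasts had the highest value of Vegfc, at 205 CPM (171 to 244) in WT and 375 CPM (318 to 438) in HIF-1α KO. These intervals overlapped those of blood endothelial nuclei in both libraries, so no order of these classes could be read. A small fibroblast-like cluster of 24 WT and 9 HIF-1α KO nuclei, led by Csmd1, Pcdh15 and Colq, held 45 and 72 of the 128 and 155 fibroblast UMIs, or 626 CPM (456 to 837) and 1498 CPM (1172 to 1886). In HIF-1α KO 1 nucleus held 41.7% of the UMIs of that cluster, and in WT 24.4%. The main fibroblast cluster had 150 CPM (120 to 186) and 227 CPM (181 to 281). Blood endothelial nuclei had 132 CPM (84.5 to 196) and 259 CPM (176 to 368), and smooth muscle had 118 CPM (93.4 to 148) and 128 CPM (97.5 to 165). In HIF-1α KO the value of blood endothelial nuclei lay above that of the main fibroblast cluster, with overlapping intervals. Lymphatic nuclei, which carried Flt4, had 4 and 12 UMIs of Vegfc, or 18.9 CPM (5.15 to 48.4) and 100.5 CPM (51.9 to 176). In fibroblasts Vegfa, Vegfc and Nrp1 were called higher than in other nuclei, where 11.2% of genes were called. Vegfb also passed 2-fold there, on 6 and 4 UMIs, but its intervals crossed 0, with log2 ratios of 1.40 (-0.12 to 2.63) and 1.05 (-0.85 to 2.45).

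Vegfb and Pgf were scarce. Vegfb, a ligand of FLT1, had 52 and 112 UMIs in all, or 3.92 and 4.74 CPM, and its highest levels, 9.61 and 9.66 CPM in fibroblasts, rested on 6 and 4 UMIs. Pgf, also a ligand of FLT1, had 20 UMIs in WT and 7 in HIF-1α KO. Of the 20 in WT, 9 lay in 7 lymphatic nuclei, which is 42.5 CPM (19.4 to 80.7), and 0 lay in blood endothelial nuclei. In HIF-1α KO 0 were found in either endothelial class, which allows up to 3 UMIs or 25.1 CPM in each. No order of classes could be read for Vegfb or Pgf at this depth.

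**Figure D4:**
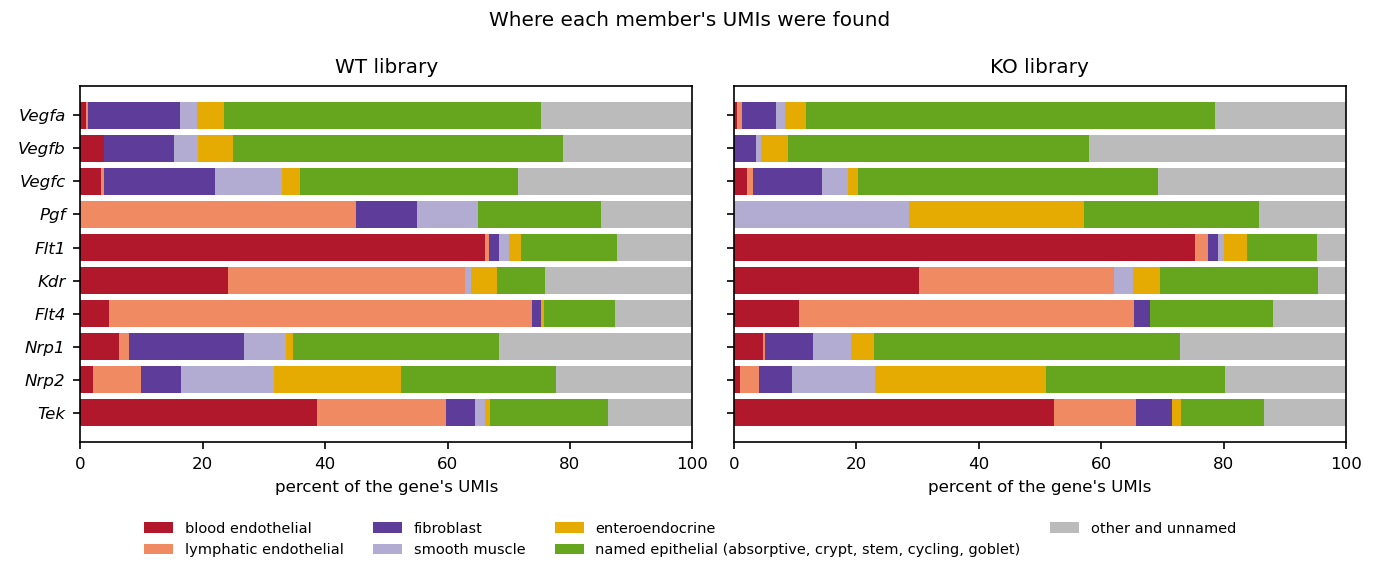
Percent of the UMIs of each of the 10 genes that lay in each class of nuclei, in the WT (left) and HIF-1α KO (right) libraries, as stacked bars that sum to 100. Blood endothelial nuclei hold 66.1% and 75.4% of Flt1 and lymphatic nuclei 69.2% and 54.7% of Flt4, while the ligands Vegfa, Vegfb and Vegfc lie mostly in epithelial and stromal nuclei.

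The UMIs of Flt1, Kdr, Flt4 and Tek lay mostly in endothelial nuclei, and those of Vegfa, Vegfc and the neuropilins lay mostly elsewhere. Endothelial nuclei held 66.8% (61.2 to 72.0) and 77.5% (70.9 to 83.2) of the Flt1 UMIs, 62.9% (53.5 to 71.7) and 62.1% (49.3 to 73.8) of Kdr, 73.8% (67.4 to 79.6) and 65.3% (53.5 to 76.0) of Flt4 and 59.7% (50.5 to 68.4) and 65.7% (53.1 to 76.8) of Tek. For Nrp1 these shares were 7.97% and 5.10% and for Nrp2 10.0% and 4.18%, and they were 1.33% and 1.42% for Vegfa and 3.97% and 3.11% for Vegfc. The level of Vegfc in blood endothelial nuclei was high but rested on 24 and 31 UMIs. Clusters without a class name held ligand UMIs too. In WT and HIF-1α KO, cluster 1 had 65 and 231 UMIs of Vegfc and 18 and 45 of Vegfa. Cluster 2 had 62 and 12 of Vegfc and 28 and 16 of Vegfa. Cluster 3 had 24 and 119 of Vegfc and 34 and 87 of Vegfa, and cluster 5 had 31 and 34 and 16 and 22. Of the scarce Pgf, 45% (23.1 to 68.5) of 20 UMIs in WT and 0 of 7 in HIF-1α KO lay in endothelial nuclei.

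The patterns over classes grouped the receptors in the same way. Pearson's r of log2(CPM + 10) over 30 points, 15 classes in each of 2 libraries, was 0.93 between Kdr and Tek, 0.91 between Kdr and Flt4, 0.86 between Flt1 and Tek, and 0.49 between Flt1 and Flt4. Vegfc and Nrp1 had an r of 0.78, and Vegfa and Vegfc 0.37. The points share libraries and depth and the values for the receptors rest on the pair of endothelial classes, so these are descriptions. Among the 10970 or 10971 genes with at least 200 UMIs to which each was compared, the 3 most like Tek were Ptprb, Egfl7 and Cyyr1 (r 0.98, 0.98 and 0.97), those most like Kdr were Podxl, Egfl7 and Shank3 (0.97, 0.96 and 0.96), and those most like Flt1 were Ebf3, Adgrl4 and Vwf (0.93, 0.91 and 0.89). Ptprb and Cyyr1 are among the markers on which the name of the blood endothelial class rests, so their closeness to Tek is no separate result. D5Ertd615e, Stab1 and Limch1 were most like Flt4 (0.99, 0.95 and 0.91), and Phldb2, Nbea and Dip2c most like Nrp2 (0.90, 0.89 and 0.89). For Nrp1 they were Bcl9l, Fam13c and Il1r1 (0.83, 0.83 and 0.82), for Vegfc Asap3, Plpp3 and Sparc (0.81, 0.80 and 0.79), and for Vegfa Bmp2, Lama1 and Tnfsf13b (0.71, 0.69 and 0.68). By Spearman's rho the leading gene was another one for 9 of the 10 members, D5Ertd615e for Flt4 being the exception.

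Over all nuclei, the endothelial receptors were lower in the HIF-1α KO library. Flt1 had 23.2 CPM (20.6 to 25.9) in WT and 8.09 CPM (6.98 to 9.32) in HIF-1α KO, a log2 ratio of HIF-1α KO over WT of -1.52 (-1.79 to -1.25). Kdr had 8.75 and 2.80 CPM (log2 ratio -1.65, -2.10 to -1.20), Flt4 16.1 and 3.18 CPM (-2.34, -2.74 to -1.96), and Tek 9.35 and 2.84 CPM (-1.72, -2.17 to -1.28). These and Pgf made 5 of 10 members called lower, where 8.48% of 16424 genes were called lower, and 0 members were called higher, where 7.79% of genes were. Of the 42 listed pathway genes 19 were called lower and 1 higher. The lowest log2 ratios were -2.83 (-4.87 to -1.20) for Sema3g, -2.65 (-3.59 to -1.80) for Robo4, -2.27 (-3.01 to -1.57) for Nos3 and -2.13 (-2.69 to -1.60) for Cdh5. The highest were 1.10 (0.56 to 1.67) for Angpt2, which was called, and 0.68 for Plxna2, 0.66 for Sema3c and 0.65 for Unc5b, which were not. Of the 15 hypoxia genes 1 was called higher, Ankrd37 at 1.57 (1.00 to 2.19), and 0 lower, the lowest being Car9, a carbonic anhydrase, at -0.39 (-0.61 to -0.16). With 10 CPM added, the median log2 ratio was 0.26 for the hypoxia list and -0.33 for the pathway list, against -0.0039 over all genes tested. Vegfa had 34.1 CPM (31.0 to 37.4) and 38.7 CPM (36.2 to 41.3), Vegfc 53.2 CPM (49.4 to 57.3) and 58.5 CPM (55.5 to 61.7), Nrp1 31.2 and 32.4 CPM, and Nrp2 143 and 100.4 CPM. After thinning, the log2 ratio of Vegfa was -0.18, from 0.18 (0.02 to 0.35), so its direction turned with thinning.

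The HIF-1α KO library also held a smaller share of endothelial nuclei. In WT, blood endothelial nuclei were 1.62% (1.28 to 2.01) of the library, against 0.702% (0.484 to 0.984) in HIF-1α KO. Lymphatic nuclei were 1.66% (1.32 to 2.06) and 0.936% (0.681 to 1.25). Fibroblast and smooth muscle nuclei were fewer as well, at 5.16% and 2.74% and at 5.51% and 2.68%. With each nucleus assigned by its own markers, blood endothelial nuclei were 0.962% (0.708 to 1.28) and 0.617% (0.413 to 0.885), whose intervals overlapped, and lymphatic nuclei 1.19% (0.903 to 1.53) and 0.532% (0.344 to 0.784). With the class shares of HIF-1α KO set to those of WT, the log2 ratio was -0.27 for Flt1, -0.51 for Kdr, -1.0 for Flt4 and -0.52 for Tek, each nearer to 0 than as found, and 0.48 for Vegfc and 0.49 for Nrp1. Outside the endothelial classes, where these receptors stood near the background of goblet nuclei, their levels were lower in HIF-1α KO too, with Flt1 at 7.93 and 1.84 CPM. In each library 1 pool of tissue was sampled, so a difference in the share of nuclei cannot be told apart from a difference in what each piece of tissue held.

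**Figure D5:**
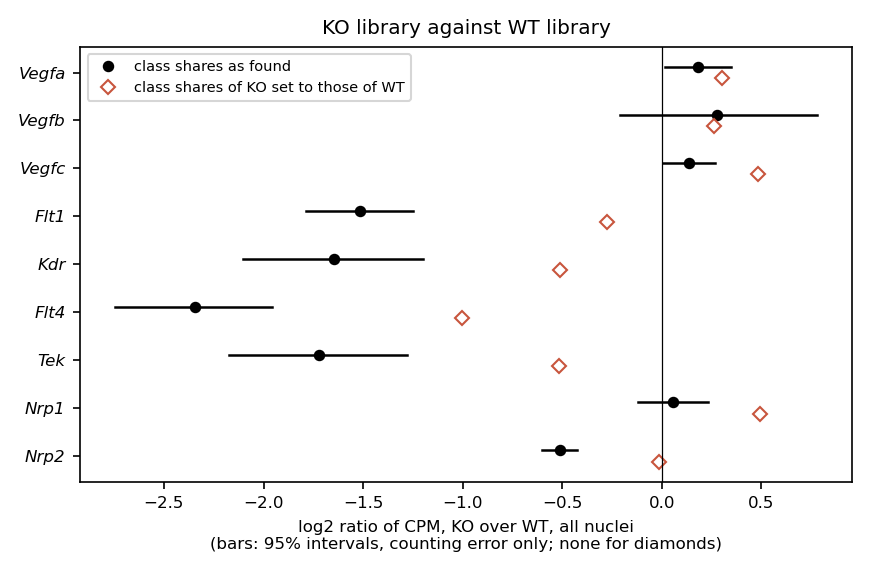
Log2 ratio of CPM of HIF-1α KO over WT over all nuclei for 9 genes (Pgf is left out for its 27 UMIs). Black points with 95% counting intervals use the class shares as found, and open diamonds, without intervals, set the class shares of HIF-1α KO to those of WT. For Flt1 the value moves from -1.52 to -0.27 and for Flt4 from -2.34 to -1.0.

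Within the endothelial classes most receptor levels were alike in the libraries to within wide intervals. In blood endothelial nuclei the log2 ratio of HIF-1α KO over WT was 0.11 (-0.21 to 0.42) for Flt1, 0.12 (-0.79 to 1.00) for Kdr and 0.15 (-0.52 to 0.81) for Tek, and that of Flt1 was -0.46 after thinning. Nrp1 was the exception with 1.11 (0.35 to 1.90), the only 1 of 6 members tested that was called higher in this class, where 6.76% of 3373 genes were called. Vegfc had a log2 ratio of 0.97 (0.16 to 1.81) and stayed under 2-fold. Beside these, the summed markers of myeloid cells, which carried Nrp1, had 2 and 7 UMIs in these nuclei and 2 of 5 of these markers were at 0 in HIF-1α KO and 3 in WT. Summed goblet markers stood at 885 and 1379 CPM, with 0 of 5 at 0. The part of such nuclei or RNA in the result was not tested.

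In lymphatic nuclei Flt4 was lower in HIF-1α KO, with a log2 ratio of -1.03 (-1.56 to -0.52), the only 1 of 4 members tested that was called lower, where 4.91% of 3726 genes were called. The ratio was -0.73 with each nucleus assigned by its own markers and -0.73 after thinning, and Nrp2, Kdr and Tek stood at -0.18 (-0.60 to 0.22), -0.27 (-1.10 to 0.50) and -0.70 (-1.98 to 0.43). Of the 3 markers that define the class, 2 were lower as well. Reln had 2065 and 1147 CPM and Mmrn1 1115 and 402 CPM, while Prox1, the factor that sets lymphatic identity, had 491 CPM (401 to 595) and 561 CPM (435 to 712). Summed fibroblast markers in the same nuclei stood at 85.0 and 293 CPM, with 2 of 6 markers at 0 in WT and 1 in HIF-1α KO, and summed myeloid markers at 146 and 41.9 CPM, with 1 and 3 of 5 at 0. Their part in the result was not tested. In the same nuclei Vegfa had 2 and 8 UMIs and Vegfc 4 and 12, with log2 ratios of 2.83 (0.50 to 6.10) and 2.41 (0.69 to 4.5).

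In the stroma, Nrp1 was called higher in the smooth muscle nuclei of HIF-1α KO. It had 28 and 48 UMIs, or 43.1 CPM (28.6 to 62.2) and 104 CPM (76.8 to 138), a log2 ratio of 1.28 (0.57 to 2.00), in a comparison where 5.02% of 7218 genes were called higher. It was 0.68 with each nucleus weighted equally. Nrp2 did not reach 2-fold, with a log2 ratio of 0.65 (0.42 to 0.88), which was 0.31 with equal weights. The summed smooth muscle markers in these nuclei were 5814 and 11761 CPM, with 0 of 6 at 0, a log2 ratio of 1.02 (0.96 to 1.08), and their part in the result was not tested. In fibroblasts Vegfc had a log2 ratio of 0.87 (0.52 to 1.22) and Nrp2 of 0.64 (0.27 to 1.01), and Vegfa of 0.15 (-0.41 to 0.70). Of the Vegfc UMIs, 45 of 128 in WT and 72 of 155 in HIF-1α KO lay in the small fibroblast-like cluster. In HIF-1α KO that cluster had 9 nuclei, and 1 of them held 41.7% of its UMIs. The main fibroblast cluster had 83 UMIs in each library, from 228 and 120 nuclei. The part of the small cluster in the ratio was not tested.

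In absorptive and crypt nuclei the log2 ratio of HIF-1α KO over WT of Nrp2 lay below 0 without reaching 2-fold, with values of -0.77 (-1.19 to -0.34) in absorptive colonocytes and -0.75 (-1.05 to -0.46) in crypt enterocytes. In the latter the value was -0.39 at a resolution of 0.5 and -0.38 with each nucleus assigned by its own markers. In goblet nuclei it was -0.58 (-1.05 to -0.10). It was 0.05 (-0.46 to 0.57) in crypt base stem nuclei and -0.0039 (-0.36 to 0.36) in cycling nuclei, and in enteroendocrine nuclei, where Nrp2 was highest, it was -0.04 (-0.22 to 0.14). Nrp1 had 30 and 102 UMIs in cycling nuclei, or 18.4 CPM (12.4 to 26.3) and 52.0 CPM (42.4 to 63.1), a log2 ratio of 1.5 (0.90 to 2.14). It was the only 1 of 5 members tested that was called higher in this class, where 5.62% of 10345 genes were called. In crypt base stem nuclei the ratio of Nrp1 was 0.76 (0.05 to 1.52). Vegfc in crypt enterocytes had a log2 ratio of 0.64 (0.27 to 1.03), which turned to -0.13 after thinning. Vegfa in absorptive colonocytes had one of 0.37 (0.04 to 0.71).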

How the data were processed

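Per the labels and methods, nuclei of frozen colon were sequenced and the authors counted UMIs per gene and barcode with Cell Ranger 7.0.1 on mm10, so the deposited values are raw counts. Whether intronic reads were counted is not given in the sources used here. Nuclei with 400 to 5000 genes and at most 10% mitochondrial UMIs were kept (9586 of 9668). The upper limit was the only step against doublets, and no caller was run. Clusters came from Seurat 5.3.0 in R 4.3.3 (CCA integration, 2000 variable features without the 10 genes and the pathway and hypoxia lists, 30 components, resolution 1, seed 1), which gave 23. Cluster 15 was split into 3 after its values were seen. Each cluster was named for the class whose markers averaged the highest log2 ratio (10 CPM added), if 3 of them had a log2 ratio of at least 1 and a UMI in 10% of nuclei and no other class had more markers among its 10 leading genes. Other clusters keep a number.

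UMIs were summed per class and library in Python 3.11.15 (numpy 2.4.6, pandas 2.3.3, scipy 1.17.1). With 1 library per genotype no test was run. Called means 2-fold among genes with at least 20 UMIs, in both libraries for classes. The named genes are the 10 members, class markers, the listed ligands of these receptors, the listed pathway genes with the 4 highest and 4 lowest ratios in a contrast, the highest and lowest hypoxia genes, and the 3 genes most like each member by Pearson's r over classes with at least 30 nuclei. Which of these are printed was chosen with their values known. The members and lists were chosen with earlier results of these data known. The scripts were tested on simulated data. Alternatives were the barcode filter, resolutions of 0.5 and 2, no integration, the genes kept in the clustering, naming each nucleus by its own markers, thinning to 1000 UMIs, at least 50 UMIs, equal weight per nucleus, WT class shares and Spearman's rho.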

Additional observations from a re-analysis of the deposited data

Results flagged for a closer look

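The log2 ratio of HIF-1α KO over WT for Nrp1 was 1.70 (0.31 to 3.43) in enteroendocrine nuclei, on 28 and 5 UMIs, and -0.76 (-1.46 to -0.04) in absorptive colonocytes, on 46 and 29. For Nrp2 it was 0.65 in smooth muscle nuclei and -0.77 in absorptive colonocytes. Each pair is given because the counting intervals lie on opposite sides of 0. There was 1 library per genotype, so neither difference was tested. After thinning, the value of Nrp1 in absorptive colonocytes was 0.97 (-1.42 to 4.27).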

How the results depend on the processing

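No paired analysis was possible because each genotype had 1 library. Of 647 values recomputed under an alternative, 177 for the main results and 356 for single genes stayed within the counting interval of the value reported or, for counts of genes, within 1.5 times of it. Another 45 values for the main results and 66 for single genes moved outside those limits without being counted as reversed. Counted as reversed were 1 main result and 2 single genes, all of them in HIF-1α KO over WT after thinning. Their log2 ratios became -0.18 for Vegfa over all nuclei, -0.13 for Vegfc in crypt enterocytes and 0.97 for Nrp1 in absorptive colonocytes. Flt1 in blood endothelial nuclei, whose interval included 0, also fell below 0 from 0.11, to values given below, and is not in this count. With each nucleus named by its own markers, the log2 ratio over other nuclei was 6.68 in WT and 8.57 in HIF-1α KO for Flt1 in blood endothelial, 6.68 in WT for Flt4 in lymphatic, and 2.52 and 3.33 for Nrp2 in enteroendocrine nuclei. Vegfc in absorptive over crypt nuclei of HIF-1α KO was -1.51, blood endothelial nuclei were 0.962% of WT and lymphatic ones 1.19% and 0.532%, and HIF-1α KO over WT was -0.28 for Flt1 in blood endothelial and -0.38 for Nrp2 in crypt nuclei. After thinning, values in HIF-1α KO were 8.67 for Flt1 in blood endothelial, 1.23 for Vegfa in fibroblast and 3.67 for Nrp2 in enteroendocrine over other nuclei, and 1.79 for Vegfa in absorptive over crypt nuclei. HIF-1α KO over WT was then -0.46 for Flt1 in blood endothelial nuclei and -0.90, -1.93 and -0.41 for Kdr, Flt4 and Nrp2 over all nuclei. At a resolution of 2, Nrp2 in enteroendocrine over other nuclei of HIF-1α KO was 3.77. At 0.5, absorptive over crypt nuclei of HIF-1α KO gave 0.66 for Vegfa and -1.59 for Vegfc, and Nrp2 in crypt nuclei gave -0.39 for HIF-1α KO over WT. Without integration, Vegfa was 0.35 and Vegfc -1.32. With equal weight per nucleus, HIF-1α KO over WT was 0.31 for Nrp2 in smooth muscle and -1.86 for Flt4 over all nuclei. With WT class shares it was 0.48 for Vegfc, -0.27 for Flt1, -0.51 for Kdr, -1.0 for Flt4, 0.49 for Nrp1, -0.017 for Nrp2 and -0.52 for Tek. With at least 50 UMIs, 122 genes were called higher and 123 lower in blood over lymphatic nuclei, 837 higher in HIF-1α KO, and 2735 and 2420 lower in blood and in lymphatic over other nuclei. After thinning the first 3 counts were 136, 139 and 751, with 915 lower in HIF-1α KO, 1096 lower in absorptive over crypt nuclei and 1214 higher in fibroblasts. Fewer genes or UMIs enter by construction, and for the other values the cause was not tested. Endothelial classes of 33 to 81 nuclei per library limit the precision, and pooling hides the spread between animals.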
